A study of Homo sapiens with 6 samples.

Results

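The BCL2 family genes examined here are 10 genes picked by symbol from the deposited table, out of 23354 genes in it. They were sorted by the role of their proteins into 3 anti-apoptotic genes (BCL2, BCL2L1 and MCL1), 2 effector genes (BAX and BAK1) and 5 BH3-only genes (BID, BIK, BBC3, PMAIP1 and BCL2L11). RNA sequencing was done on LNCaP, an androgen-sensitive human prostate cancer cell line. All cells received the androgen dihydrotestosterone (DHT) at 1 nM for 48 h, 3 libraries with DHT alone and 3 with DHT plus white button mushroom (WBM) extract at 3 µL/mL. The labels name no vehicle for the cells without extract and do not say whether the libraries came from separate cultures. Cells without DHT were not analysed here.

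The BCL2 family controls whether the outer membrane of mitochondria is opened, the committing step of intrinsic apoptosis. BAX and BAK1 build the pores that let cytochrome c out, the anti-apoptotic proteins hold BAX, BAK1 and the BH3-only proteins in check, and the BH3-only proteins, switched on by different stresses, either block the guardians or activate the effectors. Much of this control acts on the proteins, by cleavage, phosphorylation, binding and rapid turnover, so messenger RNA levels describe only the supply side.

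The name BH3-only refers to a short helix, the BH3 domain, which is the contact by which members bind each other. Its core is a leucine followed, after 3 variable residues, by glycine or alanine and then aspartate. That pattern occurred exactly once in the translated GENCODE coding sequence (GRCh38) of each of the 10 genes, against at least once in 24.8% of 19487 protein-coding genes, so the pattern alone does not mark the family. The 36-base coding stretches around it are shown because they are what the 3 classes share and what groups them as a family. Lower-case runs read 5′ to 3′ along the coding strand, and capitals mark the codons of the leucine, the glycine or alanine, and the aspartate.
BCL2 (codons 94 to 105 of 239): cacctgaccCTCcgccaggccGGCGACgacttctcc
BCL2L1 (codons 87 to 98 of 233): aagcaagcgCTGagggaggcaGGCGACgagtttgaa
MCL1 (codons 210 to 221 of 350): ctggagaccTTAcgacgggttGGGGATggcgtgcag
BAX (codons 60 to 71 of 192): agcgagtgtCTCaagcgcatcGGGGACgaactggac
BAK1 (codons 75 to 86 of 211): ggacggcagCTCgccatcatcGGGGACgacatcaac
BID (codons 133 to 144 of 241): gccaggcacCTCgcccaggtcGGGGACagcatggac
BIK (codons 58 to 69 of 160): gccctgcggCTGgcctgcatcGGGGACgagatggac
BBC3 (codons 138 to 149 of 193): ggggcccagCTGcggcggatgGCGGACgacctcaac
PMAIP1 (codons 26 to 37 of 54): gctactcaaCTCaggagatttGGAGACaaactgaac
BCL2L11 (codons 89 to 100 of 138): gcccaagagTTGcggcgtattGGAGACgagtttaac

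All 10 genes passed the low-count filter and all 10 changed, by the quasi-likelihood F-test of edgeR at a Benjamini-Hochberg adjusted p under 0.05 over the 13466 genes tested. BCL2L1, BAX, BAK1, BID and BBC3 were higher with the extract, and BCL2, MCL1, BIK, PMAIP1 and BCL2L11 were lower. Both effector genes rose. The anti-apoptotic genes divided into 1 rise and 2 falls, and the BH3-only genes into 2 rises and 3 falls. Most genes of the series also changed: 58.2% of those tested passed the same threshold, 29.2% higher and 29.0% lower. The share of higher genes among those that passed was 50.1%, and 56.5% with upper-quartile factors and 59.4% with library totals only. The 3 libraries of one group lay entirely above those of the other for all 10 genes, as they did for 62.2% of tested genes. The family's median log2 fold change (DHT+WBM over DHT) was 0.01, beside 0.00 over all tested genes, with single genes between -0.68 for BCL2 and 0.76 for BBC3. None of the 10 reached a change of 2-fold.

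**Figure D1:**
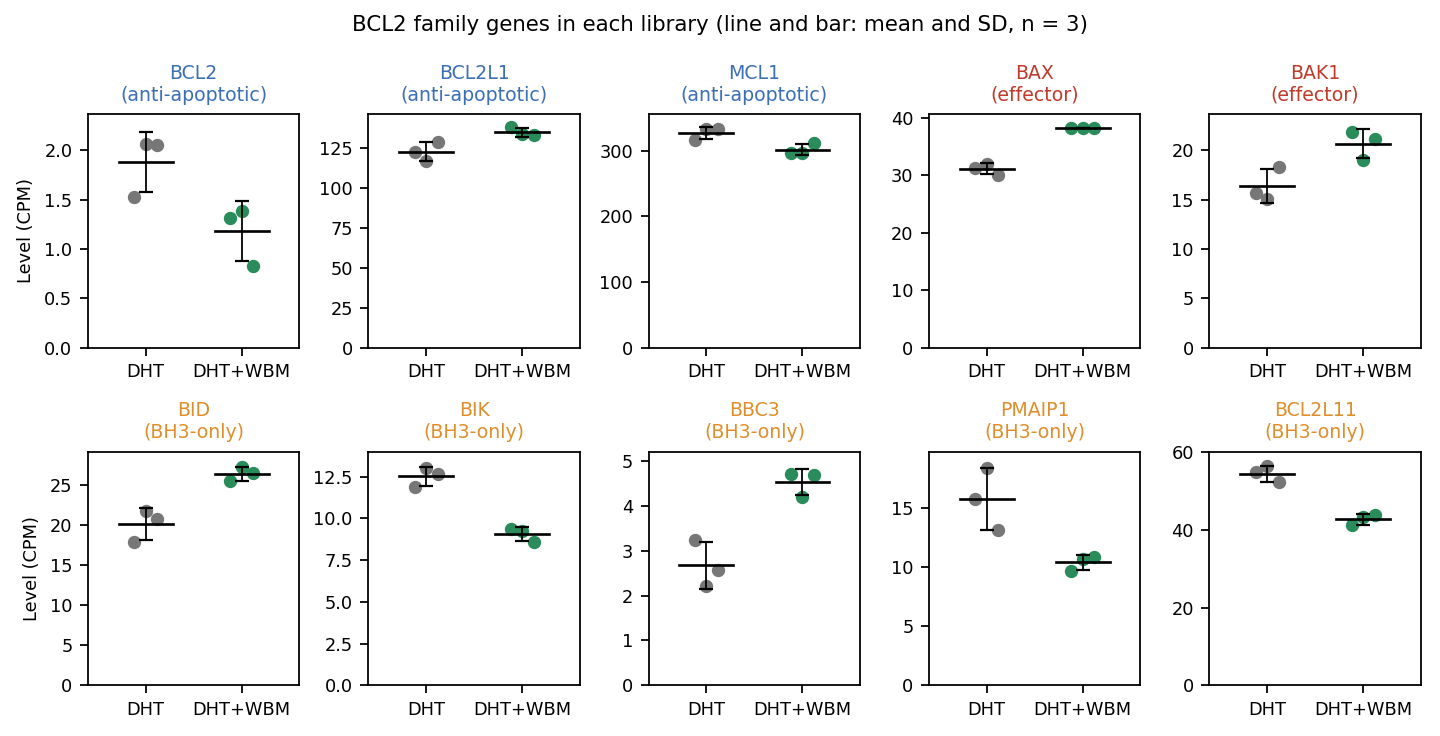
Level of each gene in CPM, read counts rescaled to equal library size (linear axes from 0, each panel with its own scale), in the 3 DHT and 3 DHT+WBM libraries, with mean and SD. Points of the groups do not overlap in any panel. The levels run from about 1 to 2 CPM for BCL2 to about 300 CPM for MCL1.

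The libraries held 19127357 to 21490953 counts. Replicates of a group differed by more than counting noise, with a chi-square per degree of freedom of 3.74 to 4.29 between DHT libraries and 1.73 to 2.02 between DHT+WBM libraries, so no 2 libraries looked like one deposited in duplicate and the DHT libraries spread more. The common coefficient of variation beyond counting noise was 3.39%, which lets small changes pass the test. All 8 luminal prostate markers were at 1 CPM or more, with KLK3, which encodes prostate-specific antigen, the highest in DHT. Their summed level was 4666 to 4921 CPM in DHT and 3477 to 3620 CPM in DHT+WBM. KLK3 fell from a mean of 1683 to 617 CPM, and KLK2 and HOXB13 fell too, while KRT8 rose and KRT18, EPCAM, CDH1 and FOLH1 did not pass the test. Markers of other cell types were mostly low. Of these, 0 of 3 basal, 1 of 5 immune (LYZ) and 2 of 5 stromal and endothelial markers (COL1A1 and VWF) reached 1 CPM. COL1A1 was at 10.5 CPM in DHT and 11.2 CPM in DHT+WBM, and it and VWF did not pass the test. LYZ rose from 2.10 to 2.86 CPM (edgeR adjusted p = 0.0302). KRT5 and COL1A2 had no count in any library, and the immune marker PTPRC had at most 1 count. In such bulk RNA, fewer cells with a transcript and less transcript per cell cannot be told apart.

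MCL1 and BCL2L1, both guardians against apoptosis, dominated the family. Levels of different genes are compared here as RPKM, that is CPM divided by the gene length in kilobases given in the deposited table. On this scale MCL1 was at 80.2 ± 2.27 RPKM in DHT (SD, n = 3) and BCL2L1 at 45.3 ± 2.20 RPKM, followed by BAX at 24.9 ± 0.76 RPKM and BIK at 13.2 ± 0.61 RPKM. BCL2L11, PMAIP1, BID and BAK1 lay between 7.03 and 8.78 RPKM on average. Their library ranges in DHT overlapped for PMAIP1, BID and BAK1, and PMAIP1 also overlapped BCL2L11, so neighbours in that stretch were not separated by their spread. BBC3, at 1.28 ± 0.25 RPKM, and BCL2, at 0.27 ± 0.04 RPKM, were the scarcest. By RPKM averaged over both groups, MCL1 stood at the 93.6th percentile of tested genes and BCL2 at the 3.98th. With the extract the order among the middle genes shifted: BID moved from rank 7 to rank 4, BAK1 from 8 to 6, BCL2L11 from 5 to 7, PMAIP1 from 6 to 8 and BIK from 4 to 5. The DHT+WBM library ranges of BID and BIK overlapped, as did those of each with BAK1, so their order there was not separated by their spread. The table's lengths need not equal the transcripts present in these cells, which matters most for BCL2 and BCL2L11, listed at 6.88 and 6.2 kilobases.

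Among the anti-apoptotic genes, BCL2 moved most and MCL1 and BCL2L1 only slightly. BCL2 (chromosome 18, 60790579 to 60986657, minus strand, hg19), the founding member of the family, had 32, 41 and 42 counts in DHT and 27, 27 and 18 in DHT+WBM. These are 1.53, 2.06 and 2.05 CPM against 1.32, 1.39 and 0.83 CPM. Every library with the extract was below every library without it, but the closest pair, DHT replicate 1 and DHT+WBM replicate 2, differed by little. BCL2 fell by 0.68 on the log2 scale (SE 0.23, 95% interval -1.15 to -0.22, edgeR adjusted p = 0.0107). The call rested on DHT+WBM replicate 3: without it the log2 fold change was -0.48 (edgeR adjusted p = 0.101). DESeq2 did not call it either, with an adjusted p of 0.0631. With only 115 and 72 counts per group, this is the least precise value of the family.

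MCL1 (chromosome 1, 150547027 to 150552214, minus strand) encodes a short-lived guardian that binds PMAIP1 and BCL2L11. It measured 317, 333 and 333 CPM in DHT and 296, 297 and 311 CPM in DHT+WBM. The groups did not overlap, yet the highest DHT+WBM library and the lowest DHT library were close. The fall was 1.09-fold, a log2 fold change of -0.12 with SE 0.04 (edgeR adjusted p = 0.00813). The call was lost when libraries were scaled by their totals alone, where the log2 fold change was -0.07 (edgeR adjusted p = 0.0945).

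BCL2L1 (chromosome 20, 30252261 to 30310656, minus strand) encodes BCL-XL. It measured 123, 117 and 129 CPM in DHT and 138, 134 and 133 CPM in DHT+WBM. All 3 libraries with the extract were above the highest without it. The rise was 1.10-fold, a log2 fold change of 0.14 with SE 0.04 (edgeR adjusted p = 0.00532), and it lost its call without DHT+WBM replicate 1 (log2 fold change 0.11, edgeR adjusted p = 0.0591). Alternative splicing of BCL2L1 gives a long protective and a short pro-apoptotic protein. Gene counts do not separate them, and the same holds for the splice forms of MCL1 and BCL2L11.

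**Figure D2:**
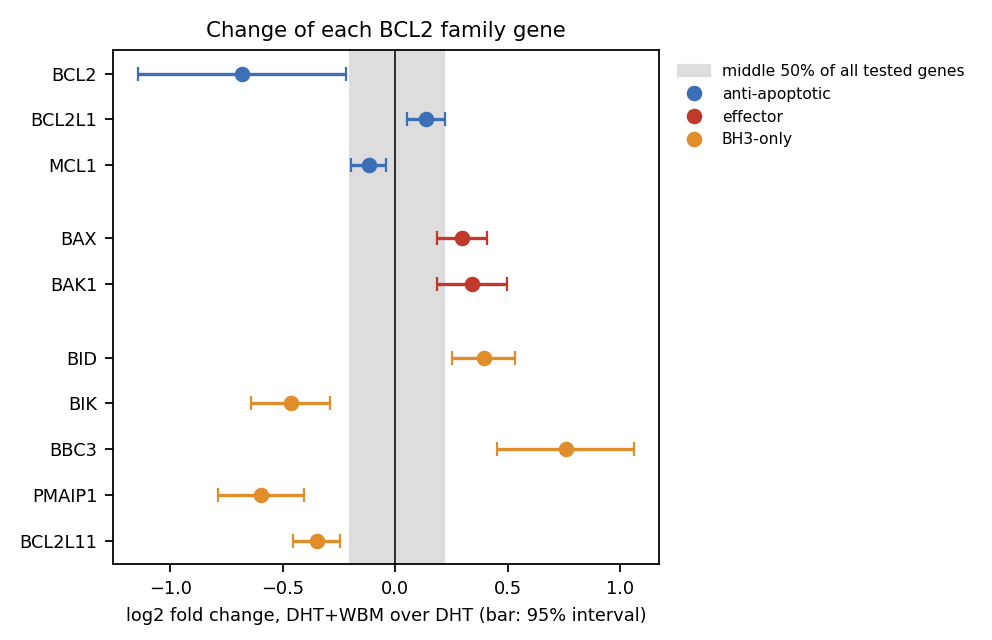
Log2 fold change (DHT+WBM over DHT) of each gene with its 95% interval, coloured by class, over the middle 50% of all tested genes (grey, -0.20 to 0.21). The effector genes both lie to the right, while the anti-apoptotic and BH3-only classes have genes on each side of 0. BCL2 and BBC3 have the widest intervals.

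The effector genes rose 1.23-fold and 1.27-fold. BAX (chromosome 19, 49458117 to 49465055, plus strand), whose protein moves from the cytosol into the mitochondrial membrane, measured 31.3, 32.0 and 30.1 CPM in DHT. With the extract it measured 38.3, 38.2 and 38.3 CPM. The 3 DHT+WBM libraries were almost identical and stood clear of those with DHT alone. This was a log2 fold change of 0.30 with SE 0.06 (95% interval 0.18 to 0.41, edgeR adjusted p = 1.95e-05). BAK1 (chromosome 6, 33540323 to 33548070, minus strand), which sits in the mitochondrial membrane already, measured 15.7, 15.1 and 18.3 CPM in DHT and 21.8, 19.0 and 21.2 CPM in DHT+WBM. The nearest libraries of the groups, DHT replicate 3 and DHT+WBM replicate 2, were close. This was a log2 fold change of 0.34 with SE 0.08 (95% interval 0.19 to 0.50, edgeR adjusted p = 2.49e-04). Processed pseudogenes of BAK1 are annotated in GENCODE, so a share of its reads could have been lost or moved during counting. Such an effect of pseudogenes was not tested, for BAK1 or for the other members. Per kilobase, BAX exceeded BAK1 by a ratio of 3.58 ± 0.46 in DHT and 3.46 ± 0.25 in DHT+WBM (SD, n = 3), and these ratios overlapped between the groups.

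The BH3-only genes divided. BBC3, which encodes PUMA, a strong activator of apoptosis, had the largest rise of the family. BBC3 (chromosome 19, 47724079 to 47736023, minus strand) measured 3.25, 2.21 and 2.58 CPM in DHT and 4.73, 4.21 and 4.70 CPM in DHT+WBM. The lowest DHT+WBM library was above the highest DHT library. The rise was 1.69-fold, a log2 fold change of 0.76 with SE 0.15 (95% interval 0.45 to 1.06, edgeR adjusted p = 4.60e-05), from 165 counts over the DHT libraries and 281 over the DHT+WBM libraries. Its value ranged from 0.64 to 0.92 as single libraries were left out.

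BID links death receptors to mitochondria, since caspase-8 cleaves its protein into an active fragment. BID (chromosome 22, 18216906 to 18257431, minus strand) measured 17.9, 21.7 and 20.8 CPM in DHT and 25.5, 27.3 and 26.6 CPM in DHT+WBM. The groups were well apart. It rose 1.31-fold, a log2 fold change of 0.39 with SE 0.07 (edgeR adjusted p = 7.28e-06).

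PMAIP1, which encodes NOXA, a partner of MCL1 that ATF4 can induce, had the largest fall among the BH3-only genes. PMAIP1 (chromosome 18, 57567192 to 57571538, plus strand) measured 15.8, 18.3 and 13.1 CPM in DHT, a wide spread, and 9.65, 10.6 and 10.8 CPM in DHT+WBM. Even the lowest DHT library was above the highest DHT+WBM library. It fell by 0.60 on the log2 scale (SE 0.09, 95% interval -0.79 to -0.41, edgeR adjusted p = 1.21e-06), a change of 1.51-fold.

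BCL2L11 and BIK also fell. BCL2L11 (chromosome 2, 111878491 to 111926022, plus strand) encodes BIM, which binds all the guardians and is a target of FOXO factors. It measured 54.7, 56.3 and 52.3 CPM in DHT and 41.1, 43.2 and 43.8 CPM in DHT+WBM. Its log2 fold change was -0.35 with SE 0.05 (edgeR adjusted p = 3.05e-07), the smallest adjusted p of the 10. BIK (chromosome 22, 43506754 to 43525718, plus strand), whose protein acts at the endoplasmic reticulum, measured 11.9, 13.0 and 12.6 CPM in DHT and 9.36, 9.24 and 8.61 CPM in DHT+WBM. It was 1.38-fold lower, a log2 fold change of -0.47 with SE 0.09 (edgeR adjusted p = 2.06e-05). For both genes the 2 groups were clearly apart. No other gene overlapping the span of a member had more than 8 counts in any library.

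Summed per kilobase, the anti-apoptotic class did not separate the groups, while the effector class was higher and the BH3-only class lower with the extract. These sums are descriptions and were not tested. They cover the listed members only and leave out other relatives. The BH3-only gene BAD was at 14.0 RPKM in DHT and 14.1 RPKM in DHT+WBM, above the mean of every BH3-only member. The effector-like gene BOK was at 21.7 and 24.0 RPKM, and the guardian gene BCL2L2 at 9.82 and 11.2 RPKM. The anti-apoptotic sum was 123, 125 and 129 RPKM in DHT and 124, 122 and 125 RPKM in DHT+WBM, with overlap. The effector sum was 31.8, 32.1 and 32.0 RPKM against 40.1, 38.8 and 39.8 RPKM. The BH3-only sum was 37.0, 40.6 and 36.8 RPKM against 32.7, 33.8 and 33.3 RPKM. The effector to anti-apoptotic ratio was therefore 0.254 ± 0.006 in DHT and 0.319 ± 0.004 in DHT+WBM (SD, n = 3). The BH3-only to anti-apoptotic ratio was 0.303 ± 0.020 and 0.268 ± 0.007. Scaled by library totals alone, the log2 ratio of the anti-apoptotic sums turned from -0.02 to 0.02 and that of the effector sums went from 0.31 to 0.35.

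**Figure D3:**
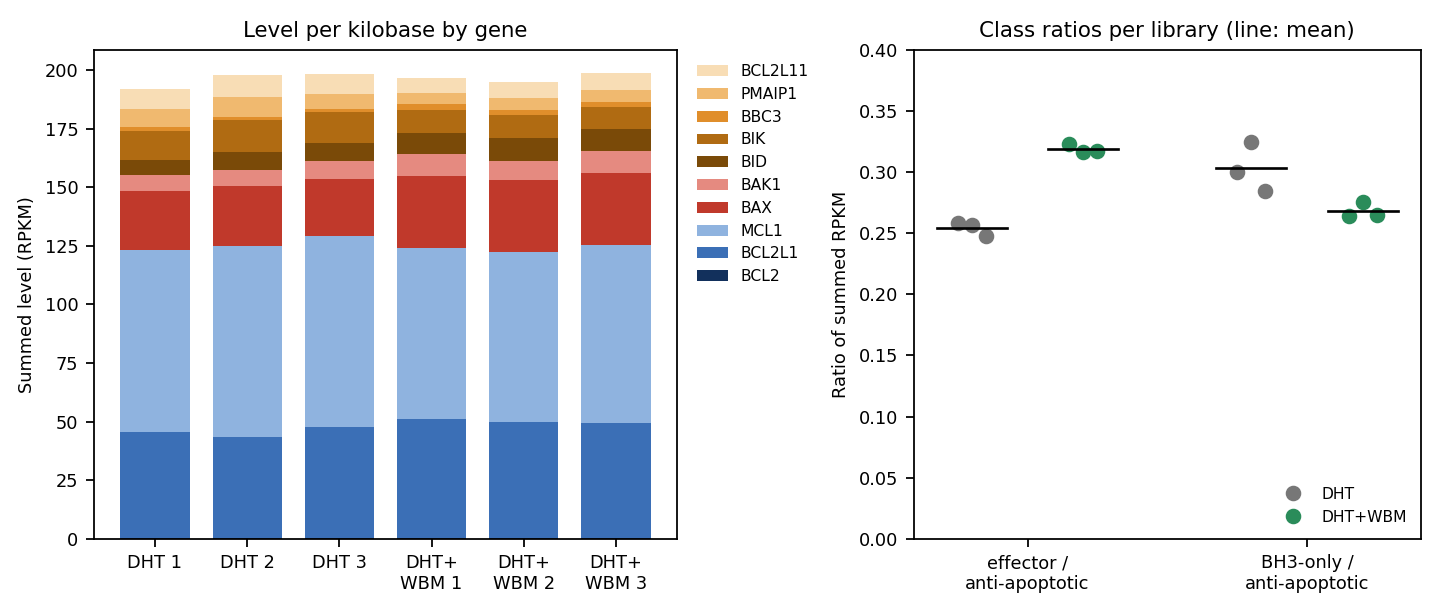
Left, RPKM of the 10 genes stacked for each library, with blue for anti-apoptotic, red for effector and brown to orange for BH3-only genes. Right, the ratio of summed RPKM for each library, with the mean as a line. MCL1 and BCL2L1 fill most of every bar, and the effector ratio is higher and the BH3-only ratio lower in all 3 DHT+WBM libraries.

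The make-up of the anti-apoptotic and BH3-only classes also differed between the groups, again as a description without a test. MCL1 made up 63.8 ± 1.31% of the anti-apoptotic RPKM in DHT and 59.6 ± 1.08% in DHT+WBM, and BCL2L1 36.0 ± 1.33% and 40.2 ± 1.04%. BCL2 contributed 0.22% and 0.14%. The BH3-only shares are of the listed members' sum, without BAD or BMF. In that sum, BID went from 19.2 ± 1.48% to 29.0 ± 0.51% and BBC3 from 3.39 ± 0.79% to 6.55 ± 0.51%. BIK went from 34.6 ± 1.32% to 28.8 ± 1.45% and PMAIP1 from 19.7 ± 2.40% to 15.0 ± 0.73%. The ratio of BBC3 to PMAIP1 was 0.205, 0.121 and 0.197 in DHT and 0.488, 0.395 and 0.433 in DHT+WBM, which was higher in each DHT+WBM library. The ratio of BAX to BCL2 was 113, 85.5 and 81.1 in DHT and 160, 152 and 255 in DHT+WBM, with its highest value in the library that had only 18 BCL2 counts. The ratio of MCL1 to PMAIP1, a guardian and its partner, was 10.3, 9.28 and 13.0 in DHT and 15.7, 14.3 and 14.7 in DHT+WBM.

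Other relatives of the family also moved in both directions. Of 11 listed, 7 passed the low-count filter, of which 4 rose and 2 fell, a share of 85.7% beside 58.2% of all tested genes. Their median log2 fold change was 0.14. BCL2L13, a mitochondrial outer membrane relative with a role in mitophagy, rose 1.21-fold to 190 ± 3.73 CPM, and BCL2L2, which encodes the guardian BCL-W, rose with a log2 fold change of 0.19. BCL2L12 fell by 0.67 on the log2 scale with an SE of 0.08 (edgeR adjusted p = 4.54e-09). Outside the naming rule, and chosen after their values were seen, the effector-like gene BOK and the BH3-only gene BMF rose with 0.14 and 0.23, and BCL2L14 fell with -1.02 from 2.21 CPM. The BH3-only gene BAD did not pass the test, at 23.0 CPM in DHT and 23.2 CPM in DHT+WBM, with a log2 fold change of 0.02 ± 0.07 (SE). BCL2A1, BCL2L10, BCL2L15 and HRK had at most 6 counts in any library and were not tested. Among 5 BNIP and beclin genes, of which 60% passed the test, BNIP3 and BNIP3L, receptors of mitophagy, rose with log2 fold changes of 0.32 and 0.18, BNIP2 fell with -0.19, and BNIP1 and BECN1 did not pass the test, at -0.10 and 0.02.

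Downstream of the mitochondria, the release and caspase list had 3 of 19 members higher and 7 lower, a share called of 52.6% beside 58.2% of all tested genes. The median log2 fold change of that list was -0.06. CYCS, the gene of cytochrome c, fell with a log2 fold change of -0.22, and DFFB, which encodes the nuclease that cuts DNA in apoptosis, fell with -0.87 from 12.4 ± 0.44 CPM. BIRC3, a caspase and NF-kB regulator, rose with 0.84. BIRC2, a paralog of BIRC3 named after its value was seen, rose with 0.14. Upstream, the death receptor list had 6 of 11 members higher and 0 lower, a share called of 54.5% beside 58.2% of all tested genes, of which 29.2% were higher. Its median log2 fold change was 0.19. The ligand gene TNFSF10, which encodes TRAIL, rose 2.32-fold to 32.9 ± 0.83 CPM and the initiator caspase gene CASP10 rose 2.56-fold to 15.8 ± 0.60 CPM (edgeR adjusted p = 1.35e-18 and 8.75e-16). CASP8, whose product cleaves BID, rose as well, with a log2 fold change of 0.19. It was named after its value was seen.

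Of 11 transcription factor genes known to act on the family, 5 rose and 4 fell, a share called of 81.8% beside 58.2% of all tested genes. JUN and CEBPB rose with log2 fold changes of 0.72 and 0.59, and ATF4 and E2F1 fell with -0.37 and -0.42. Outside the naming rule, and chosen after their values were seen, FOXO1, FOXO3 and DDIT3 rose with 0.57, 0.30 and 0.23, and MYC and TP73 fell with -0.27 and -0.71. The libraries of the groups overlapped for DDIT3. Of 6 genes for turnover and sequestration of family proteins, of which 50% passed the test, USP9X, which encodes a deubiquitinase that stabilises MCL1, rose with 0.27. DYNLL1 and DYNLL2, dynein light chains that tether BIM and BMF, fell with -0.21 and -0.15, and the other members did not pass the test.

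**Figure D4:**
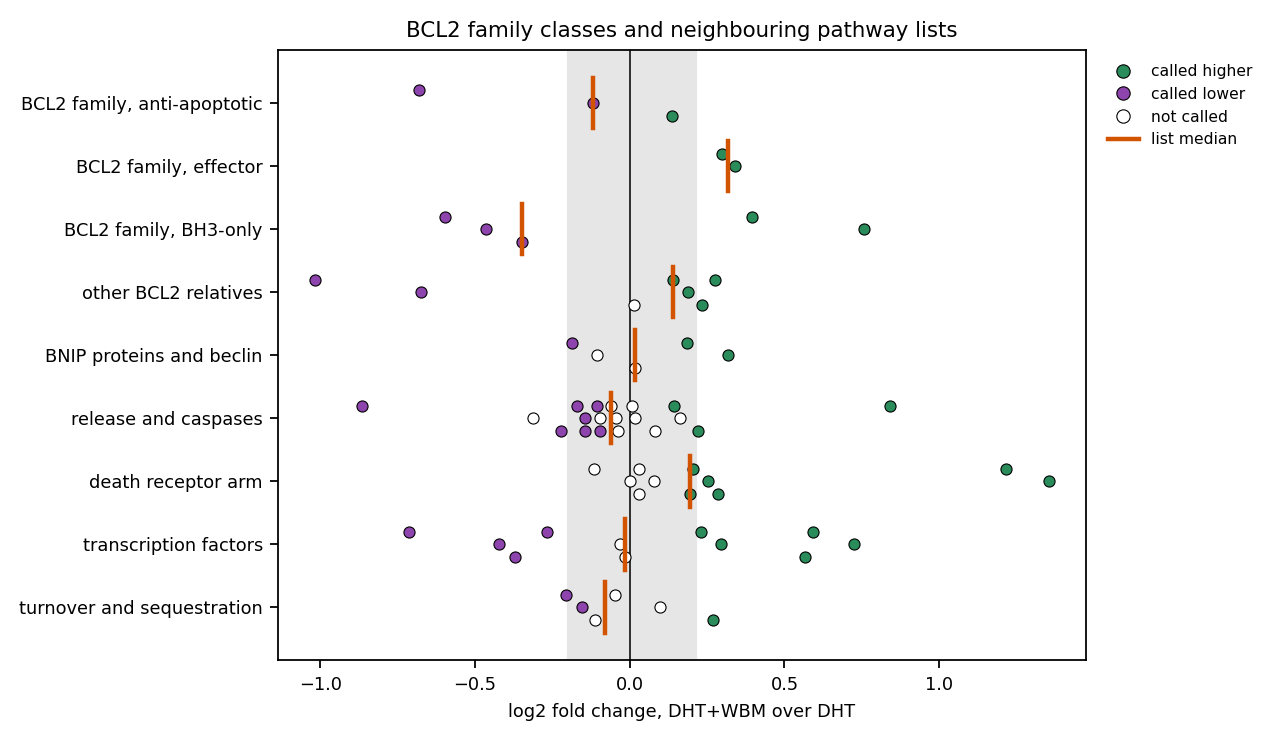
Log2 fold change (DHT+WBM over DHT) of every tested gene of the 3 BCL2 family classes and 6 neighbouring lists, filled by call, with each list's median as an orange line over the middle 50% of all tested genes (grey). Members of the death receptor list that changed all lie to the right, and those of the other 5 neighbouring lists lie on both sides.

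The region before the start site of the members was searched for binding motifs of factors that act on the family. RefSeq promoters (GRCh38.p14) were found for 8 of the 10 genes, not for MCL1 and BIK, and the 250 bases before the start were scanned on both strands. The motifs reported here are the E-box CACGTG bound by MYC, the CRE half-site TGACG bound by ATF4 and JUN family factors, the CHOP-ATF element TGATGNAAN, the E2F core TTTGGCGC and the FOXO core GTAAACA. These occurred in 6.34%, 21.2%, 3.13%, 0.55% and 2.98% of 35116 promoter windows. The stretches of 30 bases around the matches are shown 5′ to 3′ in the direction of the gene, with the motif in capitals. A match on the opposite strand appears as its reverse complement.
BCL2, CRE half-site, chr18:63319978-63320007, minus strand: ccctgccggcggcCGTCAgcgctcggagcg
BCL2L1, CRE half-site, chr20:31724148-31724177, minus strand: tctatatataaacTGACGgacggatgaaat
BAX, E-box, chr19:48954725-48954754, plus strand: tcattggacagtCACGTGacgggaccaaac
BAX, E-box, chr19:48954770-48954799, plus strand: ggcaggtgcggtCACGTGacccggcggcgc
BAX, E-box, chr19:48954818-48954847, plus strand: ttgcggggcggcCACGTGaaggacgcacgt
BAX, E-box, chr19:48954849-48954878, plus strand: cagcggggctctCACGTGacccgggcgcgc
BID, E-box, chr22:17774072-17774101, minus strand: ttgtgtcctctcCACGTGgcctggggattc
BBC3, E-box, chr19:47232882-47232911, minus strand: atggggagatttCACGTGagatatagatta
PMAIP1, CRE half-site, chr18:59899928-59899957, plus strand: tctagtttccctaCGTCAccagggaagttc
BCL2L11, FOXO core, chr2:111120679-111120708, plus strand: agagttactccgGTAAACAcgccagggacg

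The E-box was found in 3 of the 8 genes, BAX, BID and BBC3, which all rose, and not in BCL2L1 or BAK1, which rose too. Such counts are of genes with a match before any listed start, so they do not compare directly with the shares of windows. BAX held 4 copies, and the BID copy lay before 2 of its 5 listed starts. The first BAX copy overlaps a CRE half-site by sharing the letters TG, so that promoter holds both. The CRE half-site lay in 4 genes, of which BCL2L1 and BAX rose and BCL2 and PMAIP1 fell. The FOXO core was in BCL2L11, which fell. The CHOP-ATF element and the E2F core were in none of the 8 windows. These matches describe letters in short windows, and no binding was measured.

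The genes whose 6 library values most resembled those of the extremes of the family were found among 10737 tested genes with a mean of at least 5 CPM. For BBC3 they were ICA1L, PROCR and IFI35, at root-mean-square distances of 0.07, 0.07 and 0.08 on the centred log2 CPM scale. For BCL2 they were MEIS1, RGS2 and CTU2, at 0.15, 0.16 and 0.16, which are wider distances. BBC3 and BCL2 were themselves below 5 CPM on average, so genes as scarce as they were not candidates. With 2 groups of 3 libraries, the likeness mostly reflects the size of the difference between the groups.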

How the data were processed

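The deposited table holds unnormalized read counts, whole numbers for each gene, beside the gene's coordinates on hg19, strand and length in kilobases. Per the submitters' processing notes, edgeR 3.28.1, HTSeq 0.6.0, STAR 2.6.0 and bcl2fastq 2.18.0.12 were involved. Which tool did what, the annotation and the strand setting are not given.

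Using edgeR 4.0.16 in R 4.3.3, genes were filtered with filterByExpr (at least 10 counts in 3 libraries, at least 15 in all), libraries were scaled by TMM factors, and DHT+WBM was compared with DHT by a two-sided quasi-likelihood F-test without covariates, adjusted by Benjamini-Hochberg over 13466 genes. CPM and RPKM use TMM-scaled library sizes. Since separate cultures are not stated, p-values reflect the spread among libraries, possibly technical only. The procedure was tested on simulated data in which few genes changed, equally up and down. That test does not cover data where most genes change, as here. Alternatives were RLE, upper-quartile and no factors, no filter and a 1 CPM filter, DESeq2 1.42.0, limma-voom (limma 3.58.1), a block for replicate number, a threshold of 0.01, and each library left out.

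The members and lists were chosen with earlier results of these data known. Named genes were the 10 members, up to 2 per direction with the smallest adjusted p and at least 5 CPM from each other list, and the 3 nearest genes in pattern to the largest rise and fall. A few items that were analysed, a promoter motif and its match among them, are not reported here. Other named genes are said to be chosen later or are there to account for a list. Coding stretches came from GENCODE principal transcripts and promoters from RefSeq (GRCh38.p14), used for sequence only.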

Additional observations from a re-analysis of the deposited data

How the results depend on the processing

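BAX, BAK1, BID, BIK, BBC3, PMAIP1 and BCL2L11 kept their direction and passed the threshold under all 15 alternatives. So did the 19 pathway genes picked by rule, which had been chosen for a small adjusted p in these same libraries. That choice made a kept call likely, so it adds no separate support. The threshold of 0.01 reused the values of the main fit, so no sign could change there. Of the 150 member values under the alternatives, 145 kept their call, 5 lost it and none changed sign. Those lost were BCL2 with DESeq2 (adjusted p = 0.0631), at a threshold of 0.01 (edgeR adjusted p = 0.0107) and with DHT+WBM replicate 3 left out (edgeR adjusted p = 0.101), MCL1 with library totals only (edgeR adjusted p = 0.0945), and BCL2L1 without DHT+WBM replicate 1 (edgeR adjusted p = 0.0591). Over the alternatives of edgeR, DESeq2 and limma-voom the adjusted p ranged over 0.00548 to 0.101 for BCL2, 0.00209 to 0.0945 for MCL1 and 3.08e-04 to 0.0591 for BCL2L1. Leaving out a library gave 4 to 5 members higher, 4 to 5 lower, and over all genes 3440 to 3791 higher and 3642 to 3789 lower. The causes were not tested. With the replicate number as a block, 5 members were higher and 5 lower, and 4079 and 4030 genes, against 3928 and 3909 without it. Same-numbered libraries of the groups correlated by 0.05, 0.04 and 0.02 in their deviations from the group means, not every library correlated best with its own number, and the labels do not say that a number marks a shared culture. BCL2, with 18 to 42 counts per library, and BBC3, with 44 to 102, are limited most by depth.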
